A study of Mus musculus with 6 samples.

Results

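A divergent coding promoter is a stretch of DNA from which 2 protein-coding genes are transcribed in opposite directions. Such pairs were taken from GENCODE M39 on the mouse build GRCm39 with a rule that used no measured value. The Ensembl canonical transcription start site (TSS) of a gene on the minus strand had to lie 1 to 1000 bp to the left of that of a gene on the plus strand, on an autosome. The rule gave 530 pairs made of 1046 genes, out of 20444 autosomal coding TSSs, and 14 of these genes stood in more than 1 pair. Open intervals of the deposited peak list that overlapped the sequence from one TSS to the other numbered 505 of 279569. They covered 516 pairs, of which 513 had 1 interval and 3 had 2, and 14 intervals served more than 1 pair. No interval overlapped the other 14 pairs. With every coding transcript in place of the canonical one, the rule gave 1074 pairs. Of the 530 pairs, 6 lie on chromosome 18 and were counted but are not named.

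The intervals come from ATAC-seq, in which the Tn5 transposase cuts and tags open chromatin, on nuclei of mouse kidney cortex. The labels give 3 libraries of WT mice, which by the study's methods are Acly fl/fl littermates without Cre, and 3 of Acly cKO mice, in which Ksp-Cre removes the floxed Acly gene in tubule epithelium, and all carry the treatment label Control. Cells outside the tubule keep Acly in the cKO, no age is given for these libraries, and whole cortex mixes many cell types. By the labels, WT came from batches 1 and 2 and cKO from batches 4 and 5, and a batch effect cannot be told apart from one of genotype. Peaks were called once over all libraries pooled. The values are those of the pool, which leaves the sequencing depth per library unknown, gives no replicate error and allows no comparison of the genotypes. The intervals given below cover counting error over regions only, with neighbouring regions treated as independent. Of 13 marker genes of kidney cell types, 12 had an interval over the TSS (Pecam1, of endothelium, did not), as did 2 of 6 markers of other organs, Alb and Neurod1, at 2.95-fold and 2.49-fold enrichment. The kidney markers ranged from 1.90 (Ptprc) to 33.1 (Lrp2), so some were as low as those of other organs.

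Divergent gene pairs are common in mammalian genomes and often join genes with housekeeping roles, such as DNA repair, mitochondrial function and the replication-dependent histones. RNA polymerase II assembles separately for each direction, and the DNA between the starts is kept free of nucleosomes so that both complexes can form. Most such promoters lie in CpG islands and lack a TATA box. Short words bound by general activators are typical of them, among them the CCAAT box of NFY, the GC box of the SP and KLF factors, and the sites of the ETS, NRF1, YY1 and ZNF143 factors.

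The sequences below run from one TSS to the other on GRCm39, on the plus strand in the 5′ to 3′ direction, so the gene named first is read leftwards from the left end and the second rightwards from the right end. For Atm/Npat and Abcg5/Abcg8, whose starts are 11 and 13 bp apart, 25 bases were added on each side. Capitals mark matches, on either strand, to any of the 15 words searched (spelled out with their results below). The first group holds the strongest pair, the strongest pair with a ribosomal protein gene, 5 of the looked-up pairs described below, and a pair of genes of mitochondrial translation, Mrps12/Sars2.
Zfp654/Cggbp1, chr16:64672015-64672281: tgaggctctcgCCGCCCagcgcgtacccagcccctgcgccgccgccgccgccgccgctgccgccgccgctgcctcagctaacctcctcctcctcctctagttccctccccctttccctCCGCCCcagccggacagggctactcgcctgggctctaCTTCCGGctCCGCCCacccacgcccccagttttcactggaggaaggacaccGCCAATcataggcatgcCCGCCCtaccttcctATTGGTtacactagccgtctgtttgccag
Nkiras1/Rpl15, chr14:4198560-4198713: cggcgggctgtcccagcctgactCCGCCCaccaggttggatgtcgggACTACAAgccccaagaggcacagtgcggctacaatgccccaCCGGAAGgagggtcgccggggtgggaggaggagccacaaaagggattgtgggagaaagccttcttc
Hspd1/Hspe1, chr1:55127183-55127291: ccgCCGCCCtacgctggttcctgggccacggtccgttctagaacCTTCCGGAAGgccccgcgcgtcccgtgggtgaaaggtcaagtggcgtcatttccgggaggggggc
Gart/Son, chr16:91443865-91443949: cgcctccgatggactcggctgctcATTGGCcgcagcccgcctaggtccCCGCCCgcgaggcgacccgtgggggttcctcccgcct
Atm/Npat, chr9:53448211-53448272: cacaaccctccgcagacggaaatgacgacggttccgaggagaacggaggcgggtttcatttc
Hadha/Hadhb, chr5:30360181-30360246: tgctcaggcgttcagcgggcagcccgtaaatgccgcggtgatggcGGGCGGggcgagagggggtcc
Sirt3/Psmd13, chr7:140461795-140461881: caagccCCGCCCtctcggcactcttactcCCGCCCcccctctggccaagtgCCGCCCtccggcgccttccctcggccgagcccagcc
Mrps12/Sars2, chr7:28441268-28441397: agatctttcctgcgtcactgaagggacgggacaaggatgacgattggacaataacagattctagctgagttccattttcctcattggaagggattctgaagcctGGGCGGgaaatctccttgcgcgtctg
The strongest pair, Zfp654/Cggbp1, holds 4 GC boxes, an ETS word and 2 CCAAT boxes, with the CCAAT boxes 60 and 28 bp from the start of Cggbp1. Nkiras1/Rpl15 holds the ZNF143 word and an ETS word. In Hspd1/Hspe1, ETS words on opposite strands overlap at 44 and 47 bp from the Hspd1 start and form a palindrome. No word was found in the Atm/Npat stretch, which says only that these letters are not in this window.

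The second group shows stretches that are poor in CpG, weakly open or without an interval, with the strongest histone pair, H2ac11/H2bc11, beside a histone pair that has none.
Hmbox1/Ints9, chr14:65187349-65187494: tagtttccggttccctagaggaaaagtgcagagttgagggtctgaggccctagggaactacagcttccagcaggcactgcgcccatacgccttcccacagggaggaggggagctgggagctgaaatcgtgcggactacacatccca
Tmem176b/Tmem176a, chr6:48818308-48818411: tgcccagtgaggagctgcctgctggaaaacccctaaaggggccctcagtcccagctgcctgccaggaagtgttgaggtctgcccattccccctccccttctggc
Ifit1bl2/Ifit1, chr19:34618143-34618271: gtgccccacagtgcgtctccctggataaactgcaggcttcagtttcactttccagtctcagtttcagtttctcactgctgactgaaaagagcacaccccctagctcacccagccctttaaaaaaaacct
Cabp4/Gpr152, chr19:4189608-4189786: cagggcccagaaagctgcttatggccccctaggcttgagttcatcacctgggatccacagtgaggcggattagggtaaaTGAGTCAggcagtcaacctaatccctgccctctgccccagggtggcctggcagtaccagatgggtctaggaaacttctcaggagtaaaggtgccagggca
Zwilch/Rpl4, chr9:64080386-64080618: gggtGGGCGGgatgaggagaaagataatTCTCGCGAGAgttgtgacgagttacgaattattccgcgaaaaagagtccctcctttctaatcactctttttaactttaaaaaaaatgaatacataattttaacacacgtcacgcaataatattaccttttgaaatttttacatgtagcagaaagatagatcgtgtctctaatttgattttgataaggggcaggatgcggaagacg
Abcg5/Abcg8, chr17:84990414-84990477: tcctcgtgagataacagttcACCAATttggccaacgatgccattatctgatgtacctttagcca
H2ac11/H2bc11, chr13:22227114-22227384: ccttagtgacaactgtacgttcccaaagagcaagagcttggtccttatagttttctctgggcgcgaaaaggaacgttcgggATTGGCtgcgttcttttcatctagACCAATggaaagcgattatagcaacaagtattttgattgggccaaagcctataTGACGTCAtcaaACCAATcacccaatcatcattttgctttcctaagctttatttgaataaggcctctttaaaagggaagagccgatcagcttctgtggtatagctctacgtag
H2bc23/H2ac23, chr13:21994367-21994635: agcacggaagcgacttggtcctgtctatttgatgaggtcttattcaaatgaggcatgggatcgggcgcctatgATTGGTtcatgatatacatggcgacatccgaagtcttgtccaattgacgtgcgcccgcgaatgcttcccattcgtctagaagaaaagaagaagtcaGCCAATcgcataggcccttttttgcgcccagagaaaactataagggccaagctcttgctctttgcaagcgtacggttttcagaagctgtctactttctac
Plcz1/Capza3, chr6:139987183-139987283: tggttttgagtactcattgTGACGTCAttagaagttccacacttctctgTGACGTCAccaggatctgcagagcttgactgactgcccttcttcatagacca
Tmem176b/Tmem176a has no CpG in its 104 bases. Zwilch/Rpl4 carries TCTCGCGA on both strands, overlapping, near the Zwilch start. H2ac11/H2bc11 and H2bc23/H2ac23 are both divergent H2A and H2B pairs from the histone cluster on chromosome 13. The former has 3 CCAAT boxes and a CRE and is the strongest histone pair, whereas the latter has 2 CCAAT boxes and no interval. Plcz1/Capza3, a pair of sperm genes without an interval, holds 2 copies of the CRE word.

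Paired TSSs were nearly always inside open chromatin. An interval lay over the TSS base of 1018 of 1046 paired genes (97.3%, Wilson 95% interval 96.2% to 98.1%). The same interval covered both TSSs in 513 of the 516 pairs that had one. The 1046 TSSs are therefore not independent, and the Wilson interval is too narrow. Over all autosomal coding TSSs the share was 73.0%, and over the 19398 TSSs with no coding partner by the rule it was 71.6% (71.0% to 72.3%). The share was 90.7% for the 2036 of these that faced a long noncoding RNA (lncRNA) start and 69.4% for the other 17362. When unpartnered TSSs were weighted to the CpG content of paired ones, their share was 93.4%. Pairs of coding genes whose 5′ ends overlap head to head, which the rule leaves out, were covered at 99.1% of 810 TSSs. Here and below, unpartnered and no coding partner refer to the rule, so these 810 TSSs are counted among the 19398.

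The intervals at divergent pairs were also among the strongest at coding promoters. Fold enrichment is the pileup at the highest summit over the caller's background. Its median at the pairs was 48.8 (95% interval of the median 46.1 to 51.8), with quartiles of 32.9 and 65.1 and a range of 2.42 to 121. Over unpartnered TSSs the median of 12986 intervals was 29.8 (29.3 to 30.2), so that of the pairs was 1.64 times as high, and over all intervals it was 2.55. A lncRNA partner went with an intermediate median of 41.2 (39.7 to 42.7), and TSSs with neither partner by the rule had 28.2 (27.6 to 28.7). Overlapping head-to-head pairs had 44.7 (41.9 to 48.2), below the pairs by the point estimate but with an interval that reached theirs. Among all intervals 9.95% fell in the top 10% by -log10 q, ties at the limit left out. Of the members, 495 of 505 did (98.0%, Wilson 96.4% to 98.9%), and of the unpartnered promoter intervals 76.9%. The share was also 98.0% at overlapping head-to-head pairs and was 87.3% with a lncRNA partner. With unpartnered intervals weighted to the CpG content of members, it was 84.4%. The median -log10 q was 962 for the pairs and 491 for unpartnered TSSs.

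**Figure D1:**
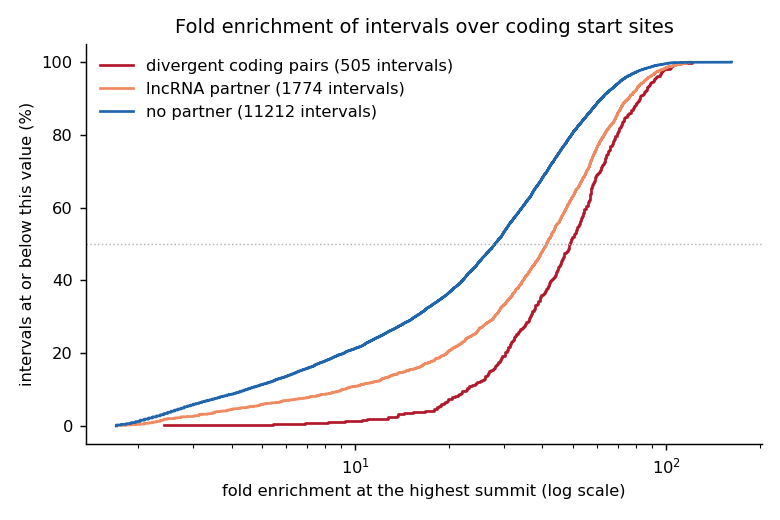
Cumulative share of intervals (y axis, percent) at or below each fold enrichment at the highest summit (x axis, log scale), for intervals at divergent coding pairs, at coding TSSs facing a lncRNA start and at coding TSSs with neither partner by the rule. The dotted line at 50% crosses the curves at medians of 48.8, 41.2 and 28.2, and the curve of the pairs starts to climb furthest to the right.

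The groups differed at both ends of the distribution. A fold enrichment under 10 was found in 7 members (1.39%) against 19.9% of unpartnered promoter intervals. At least 50-fold enrichment was reached by 243 members (48.1%), by 21.9% of unpartnered intervals and by 1.25% of all intervals. The maximum of 121 at the pairs was below that of 162 at unpartnered TSSs. Members were wider, with a median of 3597 bp against 2994.5 bp, and held a median of 8 summits against 7. They were stronger within each range of width too, with medians of 48.4 and 35.3 at 2500 to 3500 bp, and of 57.2 and 42.4 above 5000 bp.

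The strongest pair, Zfp654/Cggbp1, joins a zinc finger gene and the gene of a CGG repeat binding protein on chromosome 16. Its interval spans 4900 bp and reached 121-fold enrichment (-log10 q 3104), with the summit 30 bp from the Cggbp1 start. Etfdh, whose product passes electrons from fatty acid oxidation to ubiquinone, followed with 4930579G24Rik at 111, and Plag1/Chchd7, a transcription factor and a mitochondrial protein, at 109. Genes of cell division came next. Cdca2, which targets a phosphatase to chromatin at mitotic exit, and its partner Kctd9 reached 106, and Cep57, a centrosomal protein gene, and Fam76b reached 105. Nkiras1/Rpl15, a regulator of NF-κB and a protein of the large ribosomal subunit, had 105. Pdcd10/Serpini1, a kinase adaptor gene and the neuroserpin gene, had 104. Odr4/Tpr, the latter encoding a protein of the nuclear pore basket, and Hsp90b1/Ttc41, the former encoding the Hsp90 chaperone of the endoplasmic reticulum, both had 103. Ro60/Uchl5, an RNA-binding protein and a deubiquitinase of the proteasome, followed with a -log10 q of 2471. Ggps1/Arid4b, an isoprenoid synthase and a chromatin protein, and Zfp277/Dock4 closed the strongest 12 at 98.1 and 97.4. In 11 of these 12 pairs the summit lay between the TSSs. The exception was Etfdh/4930579G24Rik, where it lay 2 bp past the Etfdh start.

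Of 20 genes looked up for known head-to-head arrangements or for their place in this study, 7 stood in a pair. Mcm4, a subunit of the replicative helicase, and Prkdc, the catalytic subunit of the DNA-dependent protein kinase, reached 80.0-fold enrichment over starts 489 bp apart. Hspd1 and Hspe1, which encode the mitochondrial chaperonin and its cofactor, reached 74.7 with 108 bp between them. Atm, the kinase of the double-strand break response, and Npat, the coactivator of histone genes, reached 66.0 at 11 bp. Gart, a trifunctional enzyme of purine synthesis, and Son, a splicing cofactor, reached 64.6, with the highest summit 706 bp from the nearest start. Brca1 and the autophagy receptor gene Nbr1 reached 54.1 at 676 bp. The remaining pairs were lower. Hadha and Hadhb, both subunits of the mitochondrial trifunctional protein of β-oxidation, had 31.5, and Sirt3, a mitochondrial deacetylase, with Psmd13, a subunit of the proteasome lid, had 32.1. These values fell below the lower quartile of 32.9, while the other 5 pairs exceeded the median.

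Classic head-to-head genes were missing from the pairs because their canonical starts overlap. Surf1/Surf2, Paics/Ppat, Col4a1/Col4a2, Col4a3/Col4a4, Tap1/Psmb9 and Mmut/Cenpq overlapped by 103 to 367 bp. Nphs1, of the podocyte slit diaphragm, started 2025 bp from Kirrel2. Acly itself, the gene deleted in the cKO, was 17607 bp from its nearest divergent neighbour and belongs to no pair, and neither did Jak1 and Jak2.

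The 8 weakest pairs ranged from 2.42-fold to 12.7-fold enrichment. Cabp4/Gpr152, a calcium-binding protein gene of photoreceptor synapses and an orphan receptor gene, had 2.42-fold enrichment and its highest summit 1019 bp from the nearest start. This interval was the only member below the median -log10 q of all intervals. Smc1b/Ribc2, a meiotic cohesin subunit and a protein of ciliary microtubules, had 5.43, and Zfyve28/Cfap99 had 8.18. Duox2/Duoxa2, a dual oxidase of thyroid and gut with its maturation factor, had 9.30. That value belongs to a summit 3860 bp from the nearest start. Lrrc34/Lrriq4 had 10.5, and Zwilch/Rpl4, a kinetochore protein and a ribosomal protein, had 10.9. Ifit1bl2/Ifit1, of the interferon-induced family, had 12.05 with its summit between the starts, and Cfap52/Stx8, a ciliary and a vesicle fusion protein, had 12.7.

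In the 3 pairs with 2 intervals, the open chromatin was split between the starts. Elapor1/Cfap276 had 8.64 over the Elapor1 start and 13.6 over the Cfap276 start. Ccr10/Cntnap1 had 21.3 over Ccr10 and 6.87 over Cntnap1. Haghl/Ccdc78, the most distant pair at 997 bp, had 19.3 and 2.68. The intervals at 2.68, 6.87 and 8.64, with those of Cabp4/Gpr152, Smc1b/Ribc2, Zfyve28/Cfap99 and Duox2/Duoxa2, made up the 7 members under 10-fold.

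Among the 14 pairs without an interval, H2bc1/H2ac1 encodes the histone variants of the testis, Plcz1/Capza3 the sperm phospholipase and an actin capping protein of sperm, Dcst1/Dcst2 sperm membrane proteins, and Patl2/Terb2 proteins of oocytes and meiotic telomeres. Lypd4/Dmrtc2, Fam217a/Tex56, Wfdc8/Wfdc6b, Gml/Gml2, Nlrp2/Lgalsl2 and Alyreffm1/Dnaaf6rt were also without one. Abcg5/Abcg8, the sterol transporter of liver and intestine, lay 189 bp from the nearest interval. Dcst1/Dcst2 lay 39 bp and Lypd4/Dmrtc2 46 bp from one. The histone pairs H2bc23/H2ac23 and H2ac24/H2bc24 were 1556 and 1745 bp from the nearest. In 10 of the 14 pairs no summit lay within 1 kb even in the list before filtering. The exception that stood apart was Mrps18b/Ppp1r10, a mitochondrial ribosomal protein with a regulator of protein phosphatase 1. The unfiltered list held 4 summits within 1 kb of it, 1 of them between the starts, and the highest -log10 q there was 1613. The filtered list held none. By the study's methods, intervals on the blacklist were removed between the lists.

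The highest summit lay close to the pair. It fell between the TSSs in 274 of 516 pairs (53.1%, Wilson 48.8% to 57.4%), past the minus-strand start in 123 and past the plus-strand start in 119. With starts taken from every coding transcript the share between them was 35.2%. Its offset from the midpoint had a median of -2.75 bp, with quartiles of -66.6 and 43.0 bp. In 332 pairs (64.3%) it was within 100 bp of the midpoint and in 411 (79.7%) within 250 bp. The distance from the summit to the nearest TSS had a median of 42 bp, against 80 bp from an unpartnered TSS. A pair offers 2 starts to be near to. The interval covered both TSSs in 513 pairs (99.4%). It ran a median of 1616.5 bp past each paired TSS into the gene, close to the 1695 bp on the downstream side of an unpartnered TSS and longer than the 1117 bp on the upstream side. The summit was nearer the minus-strand start in 270 pairs, nearer the plus-strand start in 245 and equally near in 1.

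**Figure D2:**
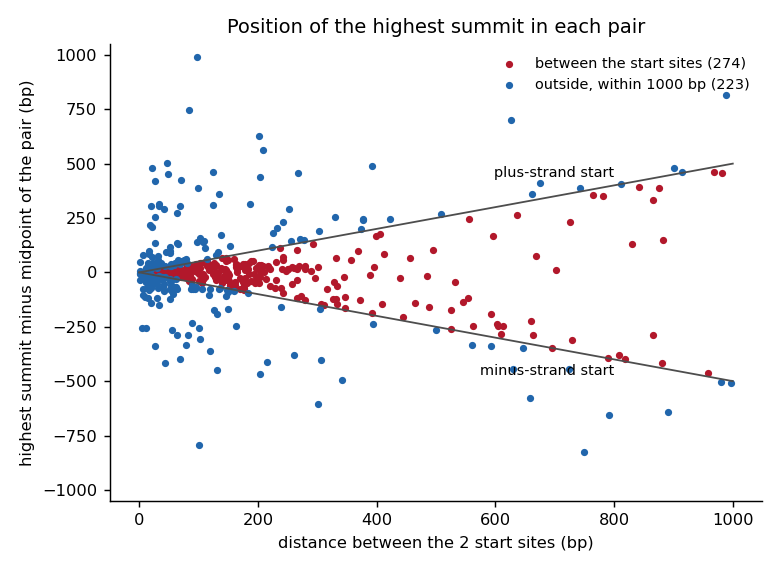
Position of the highest summit relative to the midpoint of the pair (y axis, bp) against the distance between the TSSs (x axis, bp), 1 point per pair. The lines mark the start sites, the 274 red points lie between them and the 223 blue points outside, and 19 pairs with a summit over 1000 bp away are not drawn.

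In 19 pairs the highest summit was over 1000 bp from the midpoint. Positions are negative on the side of the minus-strand gene. The farthest was that of Sphk2/Rpl18 at -13041.5 bp, in an interval of 26735 bp with 70 summits, followed by Cyb561d2/Nprl2 at -8259 bp and Fiz1/Zfp524 at 5345 bp. Paternally expressed imprinted genes gave further examples. The summit was at -1909 bp from the midpoint of Peg3/Usp29, on the Peg3 side, and at 1977.5 bp from that of Sgce/Peg10, on the Peg10 side. These 5 pairs were chosen after their values were seen. The fold enrichment of such pairs describes the whole interval rather than the stretch between the starts.

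The distance between the starts had a median of 126 bp, with quartiles of 52.25 and 252.5 bp. Fold enrichment was highest at intermediate distances. The 222 pairs up to 100 bp apart had a median of 42.4 (39.2 to 48.1), and the 129 pairs over 100 and up to 200 bp apart had 56.6 (53.2 to 62.0). The 56 over 200 to 300 bp had 55.4 (42.3 to 63.9), the 45 over 300 to 500 bp 57.2 (48.4 to 64.0), and the 64 over 500 to 1000 bp 42.7 (35.4 to 52.0). The interval of the class over 100 to 200 bp stood clear of those of the closest and the most distant pairs, that over 200 to 300 bp overlapped both, and that over 300 to 500 bp overlapped that of the most distant pairs. With the summit nearest the midpoint in place of the highest, the median of the most distant class was 24.6. The median width of the intervals rose over the same classes from 3182.5 to 4955.5 bp.

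**Figure D3:**
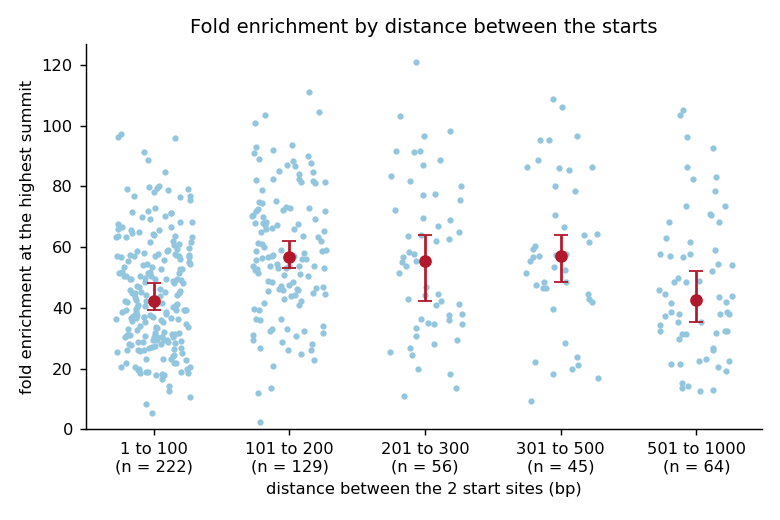
Fold enrichment at the highest summit (y axis) of each pair with an interval, in 5 classes of distance between the TSSs (x axis, bp), with the median and its 95% interval in red. Medians are 42.4 for the closest and 42.7 for the most distant class and between 55.4 and 57.2 in the classes between them.

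The extremes show the spread within each class. Bag4/Lsm1, a chaperone regulator and a protein of mRNA decay, start 1 bp apart and had 60.8-fold enrichment. Rps28/Ndufa7, a ribosomal protein with a subunit of complex I, and Mrto4/Emc1, both also 1 bp apart, had 26.1 and 17.9. Erlec1/Asb3 and Sf3b3/Cog4, at 2 bp, had 36.5 and 18.1. At the far end, Haghl/Ccdc78 (997 bp) had 19.3, Psd/Fbxl15 (989 bp) 32.4, Ushbp1/Babam1 (982 bp) 58.9 and Slc49a4/Hspbap1 (980 bp) 23.2. Babam1 encodes a subunit of a BRCA1 complex.

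Spacing also went with where the summits lay. The share of pairs with the highest summit between the TSSs was 34.2% up to 100 bp, where the target is short, 72.1% over 100 to 200 bp, 69.6% over 200 to 300 bp, 66.7% over 300 to 500 bp and 56.3% over 500 to 1000 bp. Its median distance from the midpoint grew from 32 to 368.75 bp over these classes, whereas its median distance from the nearest TSS stayed between 23 and 84.5 bp. The median number of summits between the starts was 0 in the closest class, 1 in the middle classes and 2 in the most distant. Over 200 to 300 bp, 10 of 59 pairs had a summit within 100 bp of each start, against 31 of 65 over 500 to 1000 bp.

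The windows of 100 bp on each side of the summits were rich in CpG. Their median CpG ratio, observed over expected, was 0.859 in members and 0.783 in unpartnered promoter intervals, although GC content was slightly lower in members, at 63.7% against 65.2%. The difference in fold enrichment held within each range of CpG ratio by the medians. It was 53.2 (46.0 to 58.9) in 145 members and 34.0 (32.7 to 35.3) in unpartnered intervals at a ratio of 0.6 to 0.8, and 46.0 (37.8 to 53.4) and 35.6 (34.2 to 36.8) at a ratio over 1. At 0.4 to 0.6 the medians were 47.1 and 22.8. Below 0.4 there were only 14 members, and at 0 to 0.2 their interval of 2.68 to 51.3 included the unpartnered median of 6.74. With unpartnered intervals weighted to the CpG ratios of members, their median was 34.0 and that of members 1.44 times as high.

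**Figure D4:**
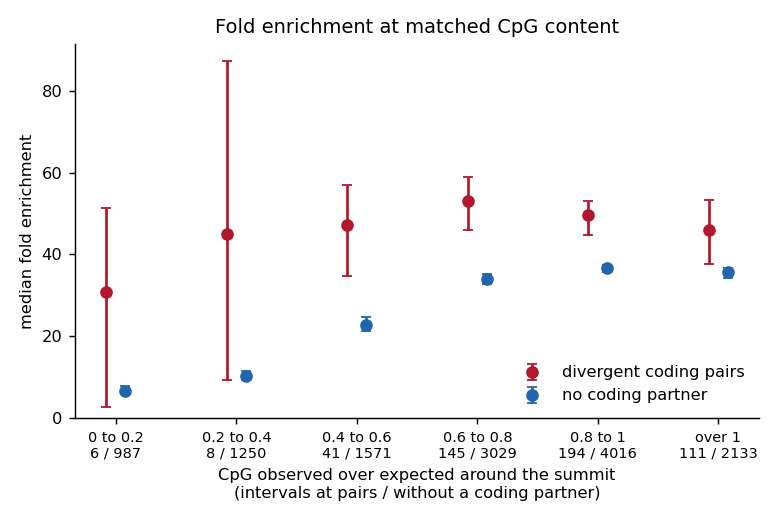
Median fold enrichment with its 95% interval (y axis) in 6 ranges of CpG observed over expected around the summit (x axis), for intervals at divergent pairs and at TSSs without a coding partner, with the numbers of intervals under each range. From 0.4 upwards the intervals of the groups do not overlap, and below 0.4 the few members leave wide ones.

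A few pairs were open around a summit with little or no CpG. Tmem176b/Tmem176a, a pair of related membrane protein genes, had a CpG ratio of 0 at its summit and 48.9-fold enrichment, in an interval of 17364 bp. Glb1l/Stk16 also had a ratio of 0 and 51.3, at a summit 3910 bp from the nearest start. Hspb2/Cryab, which encode small heat shock proteins, had 0.184 and 42.0. Eef1akmt3/Mettl1, both methyltransferases, had 0.284 and 51.5, at a summit 1528 bp from the nearest start. Taf6/Cnpy4, the former of the TFIID complex, had 0.191 and 19.8. Hmbox1/Ints9, a homeobox gene and a subunit of the Integrator complex, had 0.324 and 75.2, with the summit between the starts. Duox2/Duoxa2 and Ifit1bl2/Ifit1, at 0.226 and 0.166, completed the 8 lowest ratios and were weak. Low CpG around the summit thus went with values from 9.30 to 75.2 among these pairs. It need not hold for the promoter where the summit is far away. In the 250 bp on each side of the midpoint of the pair, the ratio was 0.690 at Glb1l/Stk16 and 0.613 at Eef1akmt3/Mettl1. At Hmbox1/Ints9, with its summit between the starts, it was 0.411.

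Most of the words searched were more frequent around the summits of pairs than at unpartnered promoters. Each was searched on both strands in the same window, and 13 of 15 had the higher share in members. The CCAAT box of NFY (ACCAAT or GCCAAT) stood in 196 of 505 windows (38.8%, Wilson 34.7% to 43.1%) against 22.4% of unpartnered windows. The ETS word (CCGGAAG) stood in 25.3% against 13.1%, and the ZNF143 word (ACTACAA) in 7.72% against 2.77%, the largest unweighted ratio of the 15 at 2.79. Ratios were 1.75 for NRF1 (GCATGCGC; 6.34% of members), 1.74 for CRE (TGACGTCA; 4.55%), 1.95 for TCTCGCGA (2.97%), 1.36 for RFX (GTTGCCA; 3.96%), 1.23 for YY1 (AANATGGC; 6.73%), 1.10 for the GC box (GGGCGG; 65.0%), 1.08 for the E-box (CACGTG; 7.72%) and 1.07 for CTCF (AGGGGGCG; 9.90%). With unpartnered windows weighted to the members' CpG ratio, the ratio was 1.66 for NFY, 1.63 for ETS and 2.63 for ZNF143, and it was under 1 for the GC box, the E-box and CTCF. It was 2.78 for HNF1 and 2.09 for HNF4, which rest on 3 and 2 members. Words of kidney tubule regulators were rare in both kinds of window. HNF4 (CAAAGTCCA) was in 0.396% of members and 0.370% of unpartnered windows, and HNF1 (TTAATNATT) in 0.594% and 0.570%. The words less frequent in members were the TATA box, searched as TATAAA (1.19% against 3.03%), and AP-1 (TGACTCA; 1.58% against 3.46%).

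**Figure D5:**
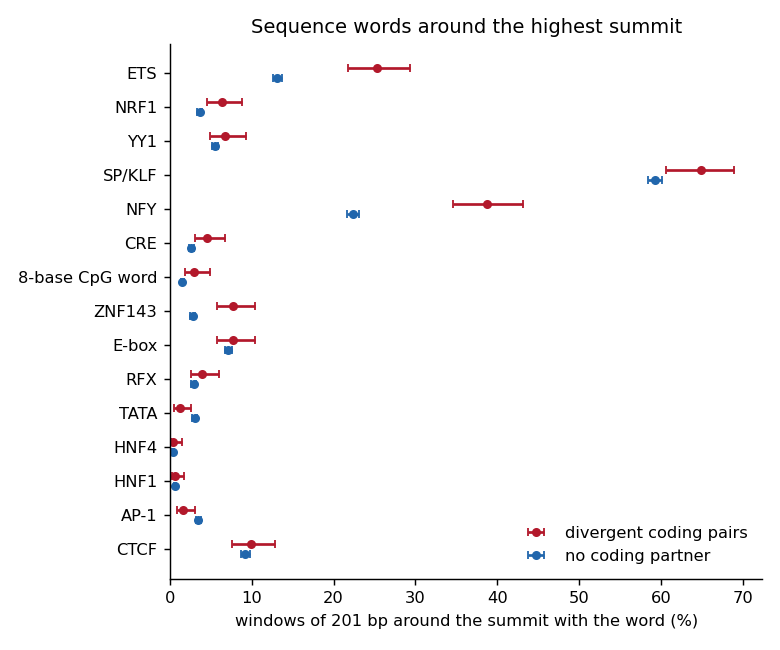
Share of windows, 100 bp on each side of the highest summit, that hold each word (x axis, percent, with Wilson 95% intervals), for members and for intervals at TSSs without a coding partner. NFY and ETS stand furthest apart, TATA and AP-1 lie to the left in members, and the label 8-base CpG word stands for TCTCGCGA.

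NFY was also the word whose count differed most between the strongest and the weakest members. The median fold enrichment was 57.2 in members with a CCAAT box in the window and 42.0 in those without. It stood in 58 of the 100 strongest members and in 18 of the 100 weakest. ZNF143 stood in 13 and 2, whereas ETS stood in 27 and 26. By distance, the contrast was largest in the closest pairs, where 70 of 222 had the box and the medians were 56.5 (49.2 to 59.3) with it and 37.3 (33.9 to 41.2) without. Over 200 to 300 bp the medians were 53.8 and 55.5, with intervals that overlapped almost entirely. Unpartnered intervals also differed, with 43.4 with the box and 26.4 without. In the closest pairs ETS went the other way, with 36.6 (31.0 to 41.6) with the word and 46.6 (41.2 to 51.3) without, intervals that barely overlapped.

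Words were then counted in the DNA from one TSS to the other, beside stretches of the same lengths upstream of unpartnered TSSs. All 19398 unpartnered TSSs were used, including the 5501 without an interval. Their median CpG ratio around the TSS was 0.594, against 0.813 at paired TSSs. The stretch in a pair borders a TSS at both ends, whereas the comparison stretch borders one at a single end. No weighting for CpG was made here. The contrasts below thus also hold differences in this layout, in openness and in CpG content. A CCAAT box lay between the starts of 199 of 530 pairs (37.5%, Wilson 33.5% to 41.8%) against 17.4%, and 84 pairs had more than 1. Over 100 to 200 bp it lay in 67 of 132 pairs (50.8%) against 17.4%, and over 500 to 1000 bp in 55.4% against 42.2%. ETS was found in 11.1% of pairs against 4.78%, NRF1 in 5.09% against 1.66% and TCTCGCGA in 2.26% against 0.580%. The TATA word was in 5.66% of pairs against 10.6%. At 1 to 100 bp it was in 1 of 228 pairs and over 100 to 200 bp in 2 of 132, against 3.31% and 7.62% upstream of unpartnered starts. HNF4 was in none of the 530 stretches, with 0.306% upstream of unpartnered starts and a Wilson upper bound of 0.720% for the pairs.

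The pairs held some gene families far more often than others. Of all autosomal coding genes 5.12% stood in a divergent pair. The family shares below carry no interval, and many rest on few genes. Family medians are over pairs, so an interval shared by several pairs counts for each of them. Histone genes stood in pairs in 26 of 82 cases (31.7%), all of them in 13 pairs of histone genes facing each other. Of these pairs 10 had an interval, with a median fold enrichment of 37.1 that was below the 48.8 of all members. The strongest was H2ac11/H2bc11 at 51.5 and the weakest H2bc26/H2ac25 at 28.0, so the range was narrow, and in all 10 the summit lay between the starts. Histone genes are near-identical copies, and the study kept only uniquely mapped reads, which can lower counts over such copies. Its part in these values was not tested.

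Genes of a DNA repair list picked by hand stood in pairs in 18 of 63 cases (28.6%), in 20 pairs that all had an interval. The list holds Atm, Brca1 and Prkdc of the looked-up pairs and leaves out others, such as Rad51b, paired with Zfyve26. Their median was 53.8, from 83.3 at Xrcc3/Zfyve21, the former a gene of homologous recombination, to 16.8 at Rad51c/Tex14, in which the latter is a germ cell gene. Both Mcm genes found, Mcm4 and Mcm8 (of 10), were in strong pairs, at 80.0 and, for Trmt6/Mcm8, 58.1. Genes of the cilium and centrosome, with symbols that start with Ift, Bbs, Cep, Tctn, Cfap or Dnah, stood in pairs in 16 of 131 cases (12.2%). Their median was 51.1, from 105 at Cep57/Fam76b to 8.18 at Zfyve28/Cfap99.

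Mitochondrial families were also above the share of all genes. Mitochondrial ribosomal protein genes stood in pairs in 14 of 78 cases (17.9%), with a median of 39.4 over the 12 of 13 pairs with an interval. Mrpl41/Pnpla7 was the strongest at 81.8 and Lrrc46/Mrpl10 the weakest at 13.7, and Mrpl46/Mrps11 joined 2 genes of the family at 39.3. Respiratory chain genes and their assembly factors stood in pairs in 14 of 108 cases (13.0%), with a median of 41.6 over 15 pairs. Ndufa5/Asb15, with a subunit of complex I, had 67.9 and Rps28/Ndufa7 26.1. Mitochondrial carriers did so in 5 of 43 cases, from 76.5 at Dbf4/Slc25a40 to 26.8 at Slc25a11/Rnf167.

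The shares of genes of protein synthesis and turnover were nearer the 5.12% of all genes and rest on few genes in pairs. Cytosolic ribosomal protein genes stood in pairs in 8 of 91 cases (8.79%), with a median of 46.3 and a wide range, from 105 at Nkiras1/Rpl15 to 10.9 at Zwilch/Rpl4. Proteasome genes did so in 5 of 50 cases, from 73.0 at Mrpl32/Psma2 to 30.3 at Ftsj3/Psmc5. Of 34 aminoacyl-tRNA synthetase genes 3 did, at 56.0 for Wars1/Wdr25, 52.3 for Mrps12/Sars2, whose partner is a mitochondrial ribosomal protein, and 34.8 for S100pbp/Yars1. Tmem genes, named for a predicted membrane span only, did so in 7.83% of 230 cases, from 73.7 at Smim7/Tmem38a to 19.4 at Eif3i/Tmem234.

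By the counts, solute carriers, Zfp zinc finger, collagen and olfactory receptor genes were below the share of all genes. Solute carriers, which include the mitochondrial carriers above, stood in pairs in 14 of 363 cases (3.86%), with a median of 47.9, from Fkbp15/Slc31a1 at 88.3, the latter a copper importer, to Sgsh/Slc26a11 at 22.8. Zfp zinc finger genes did so in 12 of 410 cases (2.93%), from Zfp654/Cggbp1 at 121 to Zfp668/Zfp646 at 31.5. None of 42 collagen genes and none of 1131 olfactory receptor genes stood in a divergent pair. The heads of Col4a1/Col4a2 and Col4a3/Col4a4 overlap, as given above.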

How the data were processed

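Libraries of WT and Acly cKO kidney cortex were grouped by their labels. By the study's methods, the authors used fastp for trimming and Bowtie2 (2.3.4.3) for alignment to mm39, dropped duplicates and multiply mapped reads, and called peaks with MACS3 (3.0.0; no model, extension of 200 bp, q of 0.05, summits called). They removed the blacklist and non-standard chromosomes with BEDTools (2.29.1). Versions, here and of deepTools (3.5.1), follow the submitters' processing notes or the methods. The methods print a shift of 100 with an unclear sign. A wrong sign would displace summits, so their positions carry that uncertainty.

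The deposited peak list gives, per summit, the fold enrichment over the caller's background, a linear ratio, and the -log10 q of the authors' caller. The p-value column was not used. Pairs that shared a fold value also shared the -log10 q, so no background that differs between loci shows in these values. It also gives a score that the authors' caller wrote as 10 times the -log10 q and the offset of the summit. A deposited list of summits before filtering holds 750624 summits, and the filtered one 749750. Its peak names show 1 call over all libraries, without naming them. By the methods, 5 WT libraries were used, of which the labels here give 3.

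Rows were joined into 279569 intervals, and each was described by its summit of highest -log10 q, ties going to the higher fold. Where given, intervals of medians are binomial order-statistic ones and those of shares are Wilson ones, both at 95%. No p-value was computed, since regions are not replicates. For CpG weighting, each unpartnered TSS or interval was weighted so that 6 ranges of CpG ratio stood in the proportions of the pairs. Families were found by symbol prefix, except DNA repair, which was a fixed list of genes picked by hand. Kinases (Rps6k) and H2 histocompatibility genes were removed from the ribosomal and histone patterns after they were seen in them. Counts of words between starts, and the pairs with overlapping starts or without gene models named Gm or Rik, were added after the data were seen. The members and lists were chosen with earlier results of these data known. Named pairs are those with genes of a fixed list of 20, the 12 strongest, 8 weakest, 5 closest and 5 most distant pairs, those without an interval, the strongest and weakest of each family and the 8 lowest in CpG. Chromosome 18 was left out of the names, and a few items that this rule names are not reported here. The scripts were tested on simulated data, where 200 of 200 planted pairs and 640 of 640 planted words were found. Python 3.11.15 was used with scipy 1.17.1, numpy 2.4.6, matplotlib 3.10.9, pysam 0.24.0 and pandas 2.3.3.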

Additional observations from a re-analysis of the deposited data

How the results depend on the processing

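No paired analysis was possible because peaks were called once over the pooled libraries and no column belongs to a single library, and for the same reason no replicate could be left out. Of 218 values under 10 alternatives, 189 stayed within the stated interval or, for counts, within 1.5 times, or, for single words, kept their direction. With every coding transcript in place of the canonical one, there were 1074 pairs and 1020 members, the highest summit lay between the starts in 35.2%, and the median fold enrichment over 100 to 200 bp was 51.1. With the summit nearest the midpoint or TSS in place of the highest, the median was 45.0 for members and 26.1 for unpartnered intervals, 92.3% of members stayed in the top 10%, the summit lay between the starts in 64.9%, and the median over 500 to 1000 bp was 24.6, below the other classes. The cause of these shifts was not tested. Pairs with overlapping starts gave 99.1% of TSSs covered, a median of 44.7 and a CpG ratio of 0.894. With pairs at most 500 bp apart, the class beyond that gives no value. Members kept the higher median fold enrichment, and paired TSSs the higher share covered, under each alternative that could change it.

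The words with small differences turned around, in percentage points of members minus unpartnered. HNF1 gave -0.122 within 500 bp, -0.465 with every transcript, -0.287 with the nearest summit and -0.0193 beside TSSs with no lncRNA partner. HNF4 gave -0.311 with every transcript, -0.102 with the nearest summit and -0.200 in windows of 50 bp on each side. The E-box gave -0.840 with the nearest summit and -0.342 in windows of 50 bp on each side, where YY1 gave -0.0704 and CTCF -1.10. The other 10 words kept their direction in all alternatives run. The unknown depth of the libraries limits what the weak intervals show.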
